A study of Mus musculus with 9 samples.

Results

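Sdc1, Sdc4, Lamc3 and Col6a3 encode cell-surface and matrix proteins, and they were taken by symbol as 4 of the 8329 genes in a table of RNA sequencing from sorted mouse bone cells. The cells were CD45-Ter119-CD31-CD51+CD200+ stromal cells of WT C57BL/6J mice, sorted by flow cytometry, and no group carried a transgene or received a drug according to the labels. BM-MSCs were bone marrow mesenchymal stem cells and P-SSCs were periosteal skeletal stem cells, both taken at steady state (day 0). Graft P-SSCs were periosteal skeletal stem cells taken on day 3 after bone transplantation, in which a whole femur is placed under the skin of the back of a recipient mouse. Each group had 3 libraries, the second replicate of both steady-state groups carries a label that joins 2 preparations, and each library held RNA of different mice. The labels give neither an age nor a marker that would tell donor from recipient cells in the graft. The comparisons ask how the matrix and receptor genes differ between the 2 steady-state populations, and how those of P-SSCs differ early after transplantation.

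Syndecans are transmembrane proteoglycans that carry heparan sulfate chains, bind growth factors and matrix proteins, and act beside integrins in cell adhesion. Syndecan-1 (Sdc1, also known as the surface antigen CD138) is best known from epithelium and plasma cells, and syndecan-4 (Sdc4) is found in many cell types, where it takes part in focal adhesions. Lamc3 encodes the laminin gamma 3 chain, a subunit of basement membrane laminins. Col6a3 encodes the alpha 3 chain of collagen VI, a microfibril-forming collagen that surrounds many mesenchymal cells.

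In the coordinates of the deposited table, which lie on GRCm38, Sdc1 spans chr12:8771323-8793715 on the plus strand and Sdc4 spans chr2:164424247-164443887 on the minus strand. Lamc3 spans chr2:31887291-31946539 on the plus strand and Col6a3 spans chr1:90765923-90843971 on the minus strand. All are protein-coding genes. Exons of Sdc1, Sdc4 and Col6a3 overlap no other annotated gene, whereas 382 exonic bases of Lamc3 overlap Gm13441, an antisense transcript. The labels leave it open whether the libraries kept the strand, so in that stretch the transcripts cannot be told apart.

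The syndecans are shown as sequence because they are paralogues that behaved differently in these cells. Their coding sequences, taken from the GENCODE M21 transcripts, hold 311 codons (933 bases) in Sdc1 and 198 (594 bases) in Sdc4. A global alignment with gaps set 592 bases against each other, of which 77.4% were identical, and the rest of Sdc1 had no partner. Gaps are placed where they gain matches, and no level for unrelated sequences was computed, so this share alone does not show how alike the genes are. Of the last 84 coding bases, which encode part of the cytoplasmic domain, 53 of the 66 aligned in the same way were identical (80.3%). These 84 bases are given here with the last 4 codons, the tail that binds PDZ domain proteins, in capitals.
Sdc1 coding end: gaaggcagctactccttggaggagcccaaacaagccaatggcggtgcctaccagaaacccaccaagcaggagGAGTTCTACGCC
Sdc4 coding end: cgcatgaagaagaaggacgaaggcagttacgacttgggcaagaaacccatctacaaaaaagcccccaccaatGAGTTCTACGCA
Of the last 12 bases 11 were identical. The stretch before the gene start shared 2 of 5 motifs searched, and it is given from RefSeq with the matches to the GC box GGGCGG, the core letters of Sp1 sites, and to the TATA core TATAA in capitals, both strands searched. The Sdc1 stretch lies at chr12:8771146-8771322 (GRCm38.p6, plus strand) and stops where the first annotated exon begins. The Sdc4 stretch lies at chr2:164443189-164443438 (GRCm38.p6, minus strand), ahead of the RefSeq start and within an intron of a longer annotated transcript.
Sdc1 promoter: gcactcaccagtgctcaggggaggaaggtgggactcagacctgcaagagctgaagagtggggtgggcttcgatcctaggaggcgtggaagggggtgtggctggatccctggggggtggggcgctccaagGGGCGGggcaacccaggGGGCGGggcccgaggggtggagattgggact
Sdc4 promoter: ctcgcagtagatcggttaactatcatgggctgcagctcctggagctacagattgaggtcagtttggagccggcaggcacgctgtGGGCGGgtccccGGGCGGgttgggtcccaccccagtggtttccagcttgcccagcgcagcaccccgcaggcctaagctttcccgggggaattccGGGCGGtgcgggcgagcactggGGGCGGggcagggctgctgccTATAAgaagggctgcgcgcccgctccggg
In the whole 250 bases before the RefSeq start, Sdc1 held 3 GC boxes and Sdc4 held 4, a motif found in 32.7% of the 32851 mouse promoters of the same length. Both also held the TATA core, which 22.8% of promoters held, in Sdc1 as overlapping matches on both strands within the annotated exon and therefore not printed. The bases G and C made up 66.0% of this window in Sdc1 and 68.0% in Sdc4, against a median of 52.4% over all promoters. The other motifs searched on both strands were those of AP-1 (TGANTCA, in 6.75% of promoters), NF-kB (GGGNNTTCC, in 4.98%) and the E-box (CANNTG, in 66.2%). Sdc4 held 1 NF-kB match and Sdc1 none, Sdc1 held 1 E-box and Sdc4 none, and neither held the AP-1 letters. The Col6a3 window (57.2% G and C) held none of the 5. Of the 4 genes, 3 were in the promoter table, and Lamc3 was not.

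The libraries held 16890241 to 21315438 fragments. The deposited values are FPKM (fragments scaled by the length of the transcript and by the total of the library), and the whole fragments behind them could be read back for all 4 genes, so each level stands on a known number of reads. Intervals given for single libraries are exact 95% Poisson intervals, which cover counting error only, and a count of 0 is given an upper limit of 3 fragments instead. Of 9 bone marrow stroma markers only Trf was in the table, at 135 to 195 FPKM in BM-MSCs and at 4.45 or less in every other library. The 4 periosteal marker genes in the table, of 7, summed to 1794 to 2427 FPKM in P-SSCs, 1263 to 1415 in graft P-SSCs and 91.7 to 150.0 in BM-MSCs. They did not move together. From P-SSCs to the graft the mean of Postn rose from 439 to 830 FPKM, and that of Ackr3 fell from 1124 to 343. Cilp fell from 332 to 134 and Mustn1 from 297 to 13.1, both named after their values were seen. The genes of CD51 and CD200 were not analysed here, and Ptprc (CD45) was at 0 in P-SSCs and at 1.35 FPKM or less elsewhere. Replicate 3 of P-SSCs stood apart from the other 2, with a chi-square of 211 and 235 per degree of freedom against them and 61.3 between them. Several values are therefore also given without it.

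Of the 4 genes, Sdc1 had the largest differences from P-SSCs. It was high in BM-MSCs, low in P-SSCs and high again in graft P-SSCs. The levels of Sdc4 overlapped in the 3 groups, Col6a3 was lowest in BM-MSCs and highest in the graft, and Lamc3 had 14 fragments or fewer in 5 of the 9 libraries. All 4 genes passed the filter on low values (at least 1 FPKM in at least 3 of the 9 libraries), Lamc3 with 3 libraries. The test was limma's, run on log2(FPKM + 1) for the 1948 genes that passed, and a gene counts as called below an adjusted p (Benjamini-Hochberg) of 0.05.

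**Figure D1:**
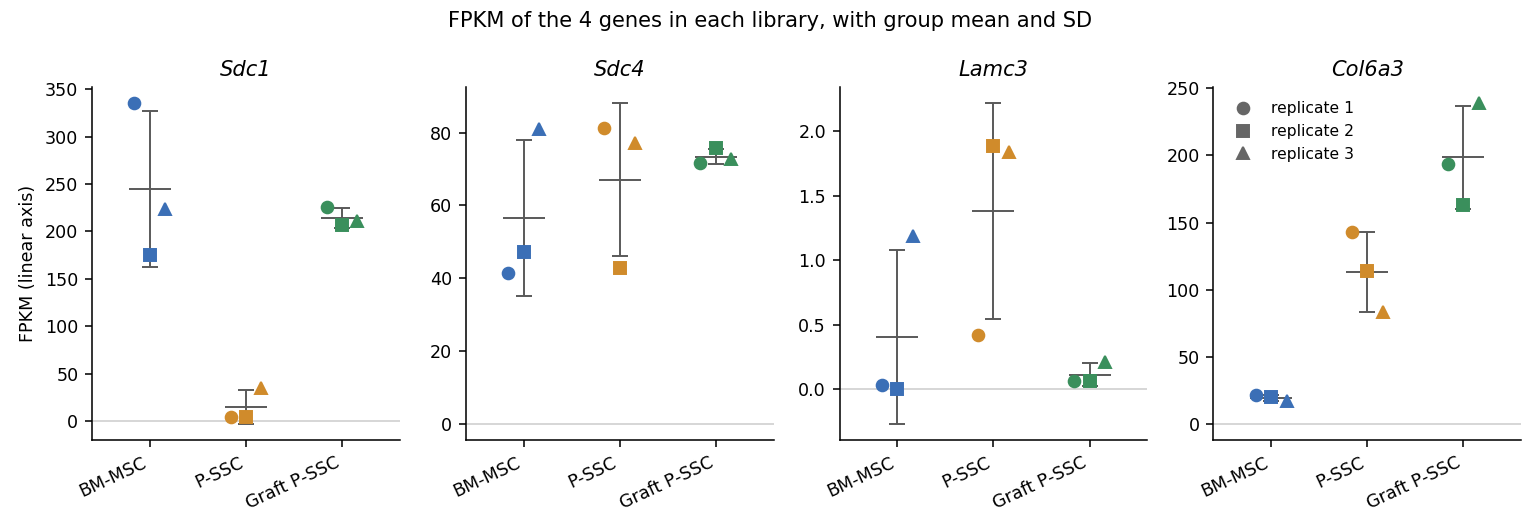
FPKM on a linear axis for each of the 4 genes, with a point for each library (colour for the group, shape for the replicate) and a bar for the mean ± SD of the 3 libraries. Sdc1 lies between 175 and 335 in BM-MSCs, between 3.85 and 35.0 in P-SSCs and between 206 and 225 in graft P-SSCs, while the Sdc4 points of the 3 groups overlap.

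Between the steady-state populations (P-SSC against BM-MSC), limma called 2 of the 4 genes, Sdc1 as lower and Col6a3 as higher in P-SSCs, where 24.2% of all genes tested were called, 14.4% as lower and 9.8% as higher. After transplantation (graft P-SSC against P-SSC) 2 of the 4 were called, Sdc1 and Col6a3, both higher in the graft, where 34.1% of all genes were called, 22.6% as higher. Between graft P-SSCs and BM-MSCs 1 of the 4 was called, Col6a3 as higher, where 41.9% of all genes were called, 25.7% as higher. The median log2 difference of the 4 genes was 0.52, 0.50 and 0.15 in these comparisons, and that of all genes tested was -0.06, 0.26 and 0.28. The comparisons share libraries, so they are not independent of each other. Over all genes the split of the calls depends on how libraries are scaled: 66.3% of the graft P-SSC calls against P-SSCs were higher as deposited, 50.8% after scaling by the median of ratios and 46.8% after quantile normalization.

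Sdc1 was at 335, 175 and 224 FPKM in the 3 BM-MSC libraries (8263, 4812 and 5960 fragments). In P-SSCs it was at 3.85, 4.32 and 35.0 FPKM (111, 112 and 971 fragments). In graft P-SSCs it was at 225, 206 and 211 FPKM (5822, 6418 and 5525 fragments). The lowest BM-MSC and the lowest graft library were both far above the highest P-SSC library, and BM-MSCs and graft P-SSCs overlapped. Non-overlap of the libraries was seen for 32.1% of all genes tested between P-SSCs and BM-MSCs, for 50.6% between graft P-SSCs and P-SSCs, and for 64.5% between graft P-SSCs and BM-MSCs.

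The mean of Sdc1 was 245 ± 82.0 FPKM in BM-MSCs, 14.4 ± 17.8 in P-SSCs and 214 ± 10.1 in graft P-SSCs (SD, n = 3 each). P-SSCs thus had a 17.0-fold lower mean than BM-MSCs, and the graft a 14.9-fold higher mean than P-SSCs. On the log2(FPKM + 1) scale, which understates changes of low values, Sdc1 fell by 4.60 from BM-MSCs to P-SSCs (SE 0.65, limma adjusted p = 0.000573) and was 4.46 higher in the graft than in P-SSCs (SE 0.65, limma adjusted p = 0.000712). These were the 16th lowest and the 12th highest of the 1948 differences in their comparisons. Between graft P-SSCs and BM-MSCs Sdc1 passed no test, with a log2 difference of -0.14 and a 95% interval from -1.60 to 1.31 (limma adjusted p = 0.875). That interval rests on a spread estimated over all 3 groups, P-SSCs included. With only the 2 groups compared in the fit it ran from -0.66 to 0.38 (limma adjusted p = 0.61).

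Within P-SSCs the Sdc1 level was uneven. Replicate 3 held 8.57 times the mean level of replicates 1 and 2, with counting intervals of 3.17 to 4.63 and 3.56 to 5.20 FPKM for the low libraries and 32.8 to 37.3 for replicate 3. Without replicate 3 the log2 differences were -5.54 for P-SSCs against BM-MSCs (limma adjusted p = 3.68e-07) and 5.40 for the graft against P-SSCs (limma adjusted p = 8.27e-07). The graft libraries, by contrast, agreed closely, with an SD of 4.71% of the mean against 33.5% in BM-MSCs and 124% in P-SSCs.

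Markers of other cells that carry syndecan-1 were read beside it. Of 15 plasma cell genes, Ighm, the heavy chain of immunoglobulin M, and Cd79b, a B cell receptor subunit, were in the table. Their summed level was 12.5 to 38.3 FPKM in BM-MSCs, 5.71 to 24.6 in P-SSCs and 0.271 to 0.623 in graft P-SSCs. Cd79b was at 0 in all P-SSC libraries. Of 15 epithelial genes only Krt1 was in the table, at 0.0468 FPKM or less. The 6 macrophage and neutrophil genes in the table, of 13, summed to 451 to 618 FPKM in BM-MSCs, 14.5 to 74.1 in P-SSCs and 35.3 to 96.5 in the graft, with 3 of them at 0 in every P-SSC library. On average most of this sum was Lyz2, a lysozyme, and 5 of the 6 were tested. Of these 0 rose and 2 fell from BM-MSCs to P-SSCs, and 2 rose and 0 fell from P-SSCs to the graft. Against BM-MSCs, 1 was higher and 2 were lower in the graft. Of all genes tested 9.8%, 22.6% and 25.7% were called as higher in these comparisons, and 14.4%, 11.5% and 16.2% as lower. The receptor genes among the 5, named after their values were seen, differed in pattern. Csf1r, the receptor of macrophage colony-stimulating factor, was at 0.968, 0.497 and 5.94 FPKM on average in BM-MSCs, P-SSCs and the graft, and was higher in the graft by 2.23 on the log2 scale against P-SSCs (limma adjusted p = 0.00431) and by 2.07 against BM-MSCs (limma adjusted p = 0.0057). Adgre1, the macrophage antigen F4/80, was at 1.97, 0 and 1.96 FPKM on average, and was 1.51 higher in the graft than in P-SSCs (limma adjusted p = 0.0413, lost in 9 of 19 alternative settings). Both were thus higher in the graft than in P-SSCs. Fcgr3, an Fc receptor, was at 7.83, 0.613 and 2.41 FPKM on average, with log2 differences of 1.24 between the graft and P-SSCs (limma adjusted p = 0.0578) and -1.35 between the graft and BM-MSCs (limma adjusted p = 0.0355, lost in 10 of 19 alternative settings). The erythroid gene Hba-a2 was at 618 to 2201 FPKM in BM-MSCs, 2.13 to 20.2 in P-SSCs and 0.531 to 3.67 in the graft. The part of blood cells in the Sdc1 levels of BM-MSCs and of the graft was not tested. In sorted bulk cells, a smaller share of cells that express a gene and less of its RNA per cell cannot be told apart.

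Sdc4 was at 41.4, 47.1 and 80.9 FPKM in BM-MSCs, at 81.2, 42.9 and 77.0 in P-SSCs and at 71.7, 75.6 and 72.8 in graft P-SSCs. These levels rested on 1139 to 2623 fragments per library, and the ranges of all groups overlapped. The highest library was 1.95 times the lowest in BM-MSCs, 1.89 times in P-SSCs and 1.06 times in the graft. The means were 56.5 ± 21.3, 67.0 ± 21 and 73.4 ± 2.05 FPKM (SD, n = 3 each).

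No difference of Sdc4 passed the test. The log2 difference was 0.25 between P-SSCs and BM-MSCs, with a 95% interval from -0.42 to 0.92 (limma adjusted p = 0.613). Between graft P-SSCs and P-SSCs it was 0.18, with an interval from -0.49 to 0.85 (limma adjusted p = 0.673). It was 0.31 without replicate 3 of P-SSCs, and its sign turned to -0.14 under median of ratios scaling and to -0.18 under quantile normalization. Between graft P-SSCs and BM-MSCs it was 0.43, with an interval from -0.24 to 1.10 (limma adjusted p = 0.263). Each interval leaves out a change of the size seen for Sdc1 between the steady-state populations.

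**Figure D2:**
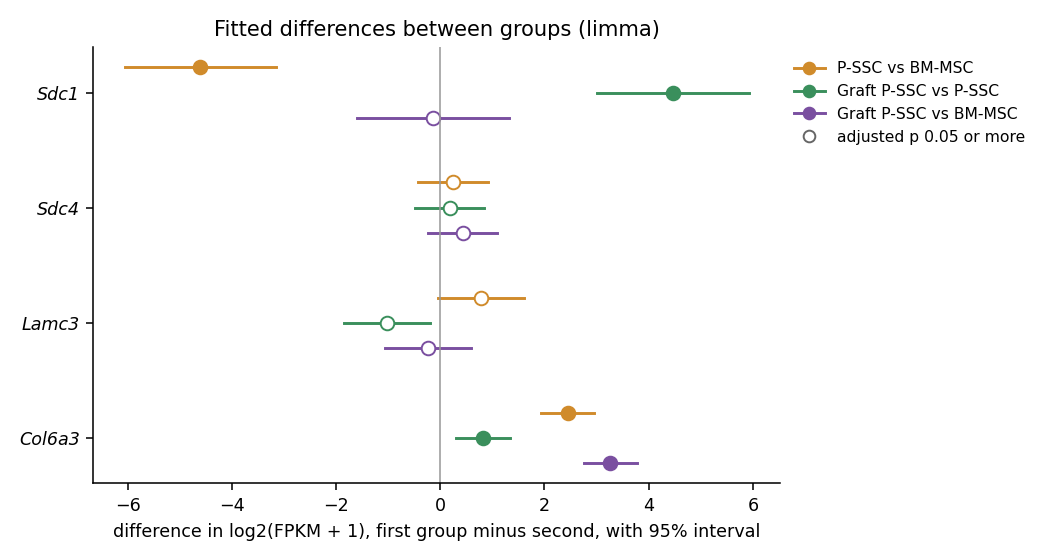
Fitted difference in log2(FPKM + 1) between groups (horizontal axis) for each gene, as a point with its 95% interval from limma, filled where the adjusted p was under 0.05. The Sdc1 points lie at -4.60 and 4.46 in the comparisons with P-SSCs, the Sdc4 intervals all include 0, and the Col6a3 intervals all lie above 0.

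The share of each syndecan changed with the level of Sdc1. Sdc1 made up 89.0%, 78.8% and 73.4% of the summed FPKM of both genes in BM-MSCs. In P-SSCs it made up 4.53%, 9.14% and 31.2%, and in graft P-SSCs 75.9%, 73.2% and 74.3%. Sdc1 was thus the more abundant syndecan of this pair in every BM-MSC and every graft library, and Sdc4 in every P-SSC library. The log2 ratio of Sdc1 to Sdc4, from values with 1 FPKM added, was 2.10 ± 0.79 in BM-MSCs, -2.75 ± 1.51 in P-SSCs and 1.53 ± 0.10 in graft P-SSCs (SD, n = 3 each). The sum of both genes was 222 to 377 FPKM in BM-MSCs, 47.2 to 112 in P-SSCs and 282 to 297 in the graft. Levels of different genes depend on the transcript length by which they were divided, which was 1460 bases for Sdc1 and 1627 for Sdc4, and with the longer length that the table lists for each gene the graft log2 ratio was 0.79.

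**Figure D3:**
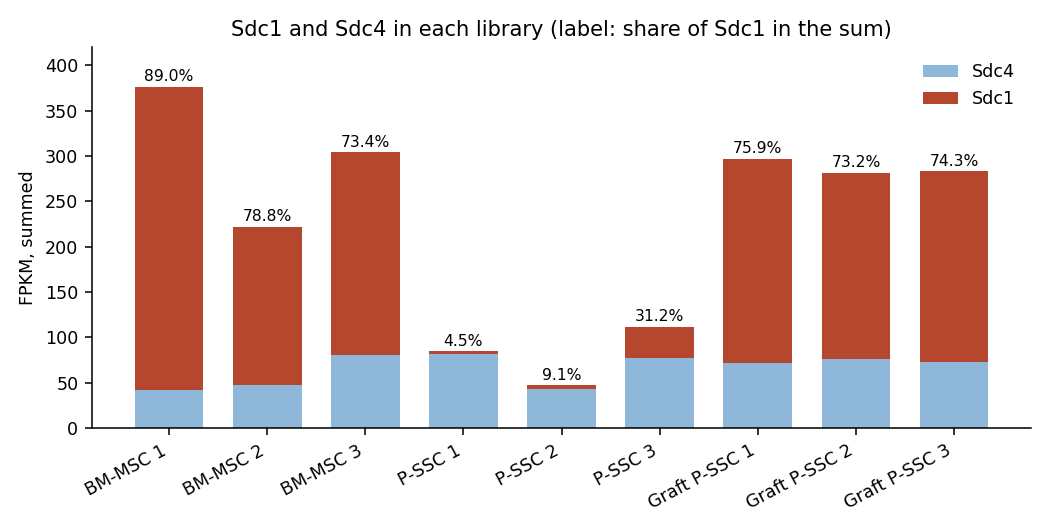
Stacked bars of Sdc4 and Sdc1 FPKM in each of the 9 libraries (vertical axis, summed FPKM), with the share of Sdc1 in the sum printed above each bar. The Sdc1 share is 73.2% or more in BM-MSC and graft P-SSC libraries and 31.2% or less in P-SSC libraries.

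Col6a3 was at 21.5, 20.0 and 17.2 FPKM in BM-MSCs (1713, 1773 and 1477 fragments). In P-SSCs it was at 143, 114 and 83.2 FPKM (13330, 9520 and 7458 fragments), and in graft P-SSCs at 193, 163 and 239 (16114, 16416 and 20219 fragments). No library of a group overlapped with those of another group, and the order of the levels was BM-MSC, P-SSC and graft P-SSC. The means were 19.6 ± 2.20, 113 ± 29.9 and 198 ± 38.0 FPKM (SD, n = 3 each).

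Col6a3 was 2.45 higher on the log2 scale in P-SSCs than in BM-MSCs (SE 0.23, limma adjusted p = 3.71e-05), a 5.80-fold difference of the means. Against BM-MSCs the graft was 3.27 higher (SE 0.23, limma adjusted p = 4.93e-06), a 10.1-fold difference. The step from P-SSCs to the graft was smaller, at 0.82 (SE 0.23, limma adjusted p = 0.0203) or 1.75-fold. The median of all genes also moved up by 0.26 in that comparison, and Col6a3 lay 0.56 above this median. The call was lost under each of the other scalings, at 0.50 with the median of ratios (limma adjusted p = 0.197), 0.68 with equal sums (0.118) and 0.59 with quantile normalization (0.0818), and without replicate 1 (0.83, limma adjusted p = 0.0619) or 3 of the graft (0.68, limma adjusted p = 0.0898). The direction was kept in each of these. Without replicate 3 of P-SSCs the log2 differences were 0.62 in this step (limma adjusted p = 0.0301) and 2.65 between P-SSCs and BM-MSCs (limma adjusted p = 9.29e-06).

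Lamc3 was by far the lowest of the 4 genes. In BM-MSCs it was at 0.0328, 0 and 1.18 FPKM, or 2, 0 and 78 fragments, so replicate 3 gave 97.5% of the 80 fragments of that group, and the count of 0 allows a level of up to 0.0442 FPKM (3 fragments). In P-SSCs it was at 0.421, 1.89 and 1.84 FPKM (30, 121 and 126 fragments). In graft P-SSCs it was at 0.0627, 0.0650 and 0.216 FPKM (4, 5 and 14 fragments). All graft libraries lay below all P-SSC libraries, while BM-MSCs overlapped with both.

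The means of Lamc3 were 0.406 ± 0.675, 1.38 ± 0.833 and 0.115 ± 0.0878 FPKM (SD, n = 3 each). The graft had a mean 12.1-fold lower than P-SSCs, with a log2 difference of -1.03 (95% interval from -1.85 to -0.20) that did not pass the test after adjustment (limma adjusted p = 0.0561). The size of this difference depended on the scale, at -2.63 with 0.1 FPKM added in place of 1 and -3.43 with voom on the fragments (limma adjusted p = 0.0703 and 0.104). It passed in 7 of 19 alternative settings, with an adjusted p from 0.0212 to 0.153 over all of them, and the difference was -0.86 without replicate 3 of P-SSCs (limma adjusted p = 0.102). P-SSCs and BM-MSCs differed by 0.79 (limma adjusted p = 0.165), by 2.29 with 0.1 FPKM added and 3.98 with voom (limma adjusted p = 0.136 and 0.089), and by 1.16 (limma adjusted p = 0.0331) without replicate 3 of BM-MSCs. Graft P-SSCs and BM-MSCs differed by -0.24 (limma adjusted p = 0.618), and by 0.13 without that replicate. At 23 fragments in the 3 graft libraries together, the level in the graft is known only to a few fragments per library.

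Schwann cells, which surround nerve fibres, also make laminin, and 2 of 5 of their marker genes were in the table. Mbp, a myelin protein, was at 9.33, 1.93 and 19.5 FPKM in BM-MSCs, at 7.79, 27.8 and 108 in P-SSCs and at 2.83, 2.59 and 2.79 in the graft. Sox10, a transcription factor of glia, was at 0.0968 FPKM or less in BM-MSCs, at 0.524, 1.20 and 8.43 in P-SSCs and at 0.179 to 0.432 in the graft. The libraries with the highest Mbp, replicates 2 and 3 of P-SSCs and replicate 3 of BM-MSCs, were the same that had over 1 FPKM of Lamc3. Sox10 did not share this, as it was at 0 in replicate 3 of BM-MSCs. In replicates 2 and 3 of P-SSCs Lamc3 was at 1.89 and 1.84 FPKM, while Mbp and Sox10 were higher in replicate 3. Mbp was also lower in the graft than in P-SSCs, by 3.02 on the log2 scale (limma adjusted p = 0.0268, lost in 5 of 19 alternative settings), and with a difference of -2.09 without replicate 3 of P-SSCs (limma adjusted p = 0.0433). The part of Schwann cells in the Lamc3 level was not tested.

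**Figure D4:**
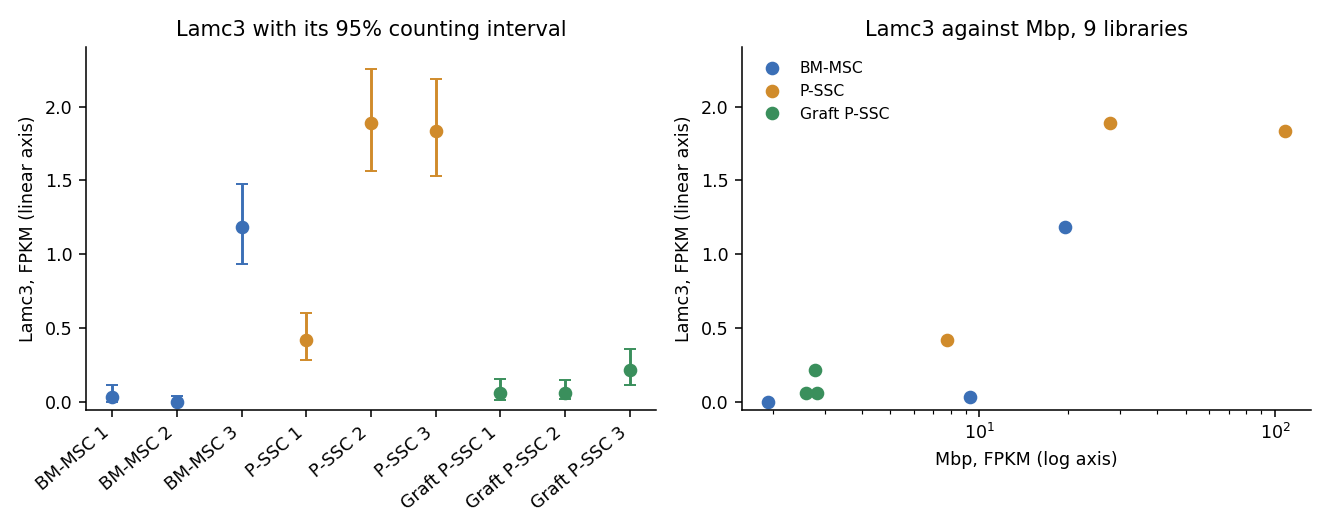
Left, Lamc3 FPKM in each library with its exact 95% Poisson interval (for the library at 0, the limit of 3 fragments); right, Lamc3 FPKM (linear axis) against Mbp FPKM (log axis) in the 9 libraries, coloured by group. Lamc3 is above 1 FPKM in 3 libraries, which also have the highest Mbp, and graft P-SSC libraries lie at 0.216 or less.

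The order of the 4 genes differed between groups. In each BM-MSC library the order from the highest was Sdc1, Sdc4, Col6a3 and Lamc3, and in each P-SSC library it was Col6a3, Sdc4, Sdc1 and Lamc3. In the graft Sdc1 was ahead of Col6a3 in replicates 1 and 2, at 225 against 193 and 206 against 163 FPKM, and behind it in replicate 3, at 211 against 239. Divided by the longest transcript of each gene in place of the mean length, Col6a3 in replicate 3 of P-SSCs was at 38.8 FPKM and Sdc4 at 51.0, so their order there depends on the length used. Among all tested genes of the same group, the mean of Sdc1 exceeded 95.8% in BM-MSCs, 65.4% in P-SSCs and 95% in the graft. Col6a3 went from 70.5% through 92.5% to 94.8%, Sdc4 was at 85.9%, 88.2% and 86.9%, and Lamc3 exceeded 16.4% or less in each group.

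Across the 9 libraries, genes were ranked by how closely they followed each of the 4, by Pearson's r of log2(FPKM + 1) among the 923 or 924 tested genes that averaged 10 FPKM or more. These libraries form 3 groups, so r mostly describes a shared group pattern. Among the genes reported here, Sdc1 was followed most closely by Hacd2, an enzyme of very long chain fatty acid synthesis (r = 0.993), and Fmnl3, a formin (r = 0.981). Hacd2 was at 25, 6.98 and 25.4 FPKM on average in BM-MSCs, P-SSCs and the graft, and Fmnl3 at 18.3, 2.05 and 26.1. Genes named for such a likeness were chosen on these libraries, so their levels are a description, given with no test.

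Col6a3 was followed by Cxcl1, a neutrophil-attracting chemokine (r = 0.991), Postn, the matrix protein periostin (r = 0.989), and Anxa2, a membrane-binding annexin (r = 0.989). Postn was at 105, 439 and 830 FPKM on average, Cxcl1 at 3.35, 136 and 346, and Anxa2 at 723, 3072 and 5480. The order of these means was that of Col6a3, by which they were chosen. Postn is also one of the periosteal markers. Lamc3 was followed by Mbp, the myelin gene of the marker list (r = 0.900), and Agfg2, which encodes a protein related to Arf GTPase activators (r = 0.859). Agfg2 was at 7.87, 20.2 and 7.0 FPKM on average. Sdc4 was followed by Rgs12, a regulator of G protein signalling (r = 0.935), Coa7, a mitochondrial assembly factor (r = 0.887), and Lhfpl2, a tetraspan membrane protein (r = 0.868). Their means were 9.49, 12.9 and 13.9 FPKM for Rgs12, 10.7, 11.4 and 14.8 for Coa7, and 14.1, 24.9 and 30.5 for Lhfpl2. Among the 4 genes themselves, r was 0.01 between the syndecans, -0.32 between Sdc1 and Col6a3, -0.59 between Sdc1 and Lamc3 and 0.42 between Sdc4 and Col6a3.

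The other genes of the same pathways were taken from lists written with earlier results of these data known, and only a part of each list was in the table. Of 37 genes that build or edit heparan sulfate 8 were in the table and 5 were tested. Between P-SSCs and BM-MSCs 1 of the 5 rose, Hpse, and 1 fell, Extl3 (median log2 difference 0.68), calls that were lost in 8 and 7 of 20 alternative settings. In the graft 2 of the 5 rose against P-SSCs (median 0.60) and 3 rose against BM-MSCs (median 1.40). Of all genes tested, 9.8% were called as higher between BM-MSCs and P-SSCs, 22.6% between P-SSCs and the graft and 25.7% between BM-MSCs and the graft (14.4%, 11.5% and 16.2% as lower), with medians of -0.06, 0.26 and 0.28. Hpse, which encodes the heparan sulfate-cleaving enzyme heparanase, was at 0.117, 0.0209 and 0.0432 FPKM in BM-MSCs, at 1.16, 1.78 and 13.0 in P-SSCs and at 15.9, 14.8 and 13.7 in the graft. Replicate 3 of P-SSCs, the one with the highest Sdc1 of its group, was again the highest. Hpse was called as higher in P-SSCs than in BM-MSCs (limma adjusted p = 0.0335) and in the graft than in P-SSCs (limma adjusted p = 0.0397), calls lost in 8 and 13 of 20 alternative settings, and in the graft than in BM-MSCs (limma adjusted p = 0.000819).

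Extl3, a glycosyltransferase that starts the heparan sulfate chain, was at 12 ± 2.49 FPKM in BM-MSCs, 5.15 ± 1.92 in P-SSCs and 8.14 ± 1.39 in the graft (SD, n = 3 each), and it fell by 1.11 on the log2 scale from BM-MSCs to P-SSCs (limma adjusted p = 0.0267, lost in 7 of 20 alternative settings). Papss2, which makes the sulfate donor, was at 14.4, 18.0 and 21.6 FPKM on average and passed no test. Ndst1, an enzyme that deacetylates and sulfates the chain, was at 1.28, 4.32 and 4.64 FPKM on average, with log2 differences from BM-MSCs of 1.18 in P-SSCs (limma adjusted p = 0.124) and 1.40 in the graft (limma adjusted p = 0.0455, lost in 9 of 18 alternative settings). B3galt6, a galactosyltransferase of the linker that joins the chain to the core protein, was named after its values were seen. It was at 0.413 FPKM or less in BM-MSCs, at 0.0159, 0 and 6.01 in P-SSCs and at 7.09, 7.78 and 4.41 in the graft, so that replicate 3 of P-SSCs lay within the range of the graft. Its call between the graft and P-SSCs (limma adjusted p = 0.0493) was lost in 15 of 20 alternative settings.

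Of 28 genes of syndecan partners and shedding enzymes 5 were in the table, and 4 were tested. Of these 2 rose between BM-MSCs and P-SSCs (median log2 difference 1.09), 3 rose between P-SSCs and the graft (median 1.46) and all 4 were higher in the graft than in BM-MSCs (median 2.35), where 9.8%, 22.6% and 25.7% of all genes were called as higher. Cav1, the main protein of caveolae, was at 7.0 ± 4.09 FPKM in BM-MSCs, 206 ± 64.9 in P-SSCs and 705 ± 46.8 in the graft (SD, n = 3 each). Its log2 differences were 4.82 between P-SSCs and BM-MSCs (limma adjusted p = 2.73e-05) and 1.82 between the graft and P-SSCs (limma adjusted p = 0.00876). Adamts4, a secreted metalloprotease that cleaves proteoglycans, was at 7.19 ± 0.139, 13.7 ± 7.35 and 41.5 ± 4.58 FPKM, and rose by 1.68 in the graft against P-SSCs (limma adjusted p = 0.00764, lost in 1 of 20 alternative settings, quantile normalization). Its log2 difference between P-SSCs and BM-MSCs was 0.70 (limma adjusted p = 0.232), and 1.18 without replicate 3 of P-SSCs (limma adjusted p = 0.0025), which would make it a call.

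Prkca, the protein kinase C alpha that binds syndecan-4, was at 1.31, 1.39 and 0.977 FPKM in BM-MSCs, at 2.26, 2.42 and 8.19 in P-SSCs and at 10.6, 9.85 and 9.91 in the graft. It was called as higher in the graft than in P-SSCs (limma adjusted p = 0.0396, lost in 14 of 20 alternative settings) and than in BM-MSCs (limma adjusted p = 0.00165). As with Sdc1, Hpse and B3galt6, replicate 3 of P-SSCs was the highest of its group. Tiam1, an exchange factor for Rac, was at 0.260 FPKM on average in BM-MSCs, 1.64 in P-SSCs and 1.54 in the graft, and was called as lower in BM-MSCs than in P-SSCs (limma adjusted p = 0.0136) and than in the graft (limma adjusted p = 0.0116), calls lost in 2 and 1 of 19 alternative settings. Without replicate 3 of P-SSCs the log2 differences of the graft from P-SSCs were 2.69 for Hpse, 2.85 for B3galt6 and 1.73 for Prkca, larger than the 1.85, 1.92 and 1.25 with it, and that of Hpse between P-SSCs and BM-MSCs was 1.21 in place of 2.05. Mmp7, the remaining gene of the list, was listed at 0 in all libraries.

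Around Lamc3, 2 of 17 laminin chain and netrin genes were in the table, and Lamc3 was the one tested. Lama3, which encodes a laminin alpha chain, was at 0.396 FPKM or less in every library. Of 27 laminin receptor and basement membrane genes only Bcam was in the table. Bcam, a laminin receptor of the immunoglobulin superfamily, was at 43.8, 47.0 and 27.5 FPKM in BM-MSCs, at 69.3, 98.7 and 54.8 in P-SSCs and at 3.93, 5.15 and 6.37 in the graft. The graft libraries did not overlap with the others, and Bcam fell by 3.59 on the log2 scale against P-SSCs (SE 0.29, limma adjusted p = 2.54e-05) and fell by 2.70 against BM-MSCs (SE 0.29, limma adjusted p = 9.47e-05).

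Around Col6a3, 2 of 26 genes of collagen VI chains, receptors and partners were in the table, Col6a3 itself and Mfap2. Mfap2, a protein of elastic microfibrils, was at 256 ± 47.6, 354 ± 151 and 220 ± 12.7 FPKM (SD, n = 3 each), and no difference passed the test (limma adjusted p = 0.389, 0.140 and 0.576). The other collagen VI chains were not analysed here.

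Of 86 genes of the ECM-receptor interaction pathway, which holds all 4 genes described here, 10 were in the table and 9 were tested. Beside the 4, the tested ones were Tnc, Thbs3, Tnxb, Hmmr and Cd36, of which the last 3 were named after their values were seen. Of these 5, 2 rose and 2 fell between BM-MSCs and P-SSCs (median log2 difference 0.38), and 2 rose and 2 fell between P-SSCs and the graft (median 0.35). Against BM-MSCs, 3 were higher and 1 was lower in the graft (median 2.38). The medians of all genes tested were -0.06, 0.26 and 0.28 in these comparisons. Genes of the list thus went both ways in each comparison. So did all genes tested, of which 9.8%, 22.6% and 25.7% were called as higher and 14.4%, 11.5% and 16.2% as lower.

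Tnc, which encodes the matrix protein tenascin C, had a pattern with the same low point as Sdc1, at 1053 ± 177 FPKM in BM-MSCs, 37.9 ± 16.9 in P-SSCs and 208 ± 32.4 in the graft (SD, n = 3 each). It differed in each comparison, by -4.84, 2.51 and -2.33 on the log2 scale (limma adjusted p = 3.72e-06, 0.000223 and 0.000222). Thbs3, a thrombospondin, had its highest level in P-SSCs, at 21, 359 and 184 FPKM on average. It was 4.11 higher in P-SSCs than in BM-MSCs (limma adjusted p = 4.91e-06) and fell by 0.95 in the graft (limma adjusted p = 0.0204, lost in 4 of 20 alternative settings). Tnxb, tenascin X, was at 0.00492 FPKM or less in BM-MSCs, at 44.6 to 49.4 in P-SSCs and at 3.70 to 4.84 in the graft. Hmmr, a hyaluronan receptor that is also made in dividing cells, was listed at 0 in all P-SSC libraries and was at 5.55 ± 5.47 FPKM in BM-MSCs and 28.8 ± 1.57 in the graft (SD, n = 3 each). Cd36, a scavenger receptor, was at 0.599, 0.953 and 1.54 FPKM on average and passed no test.

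**Figure D5:**
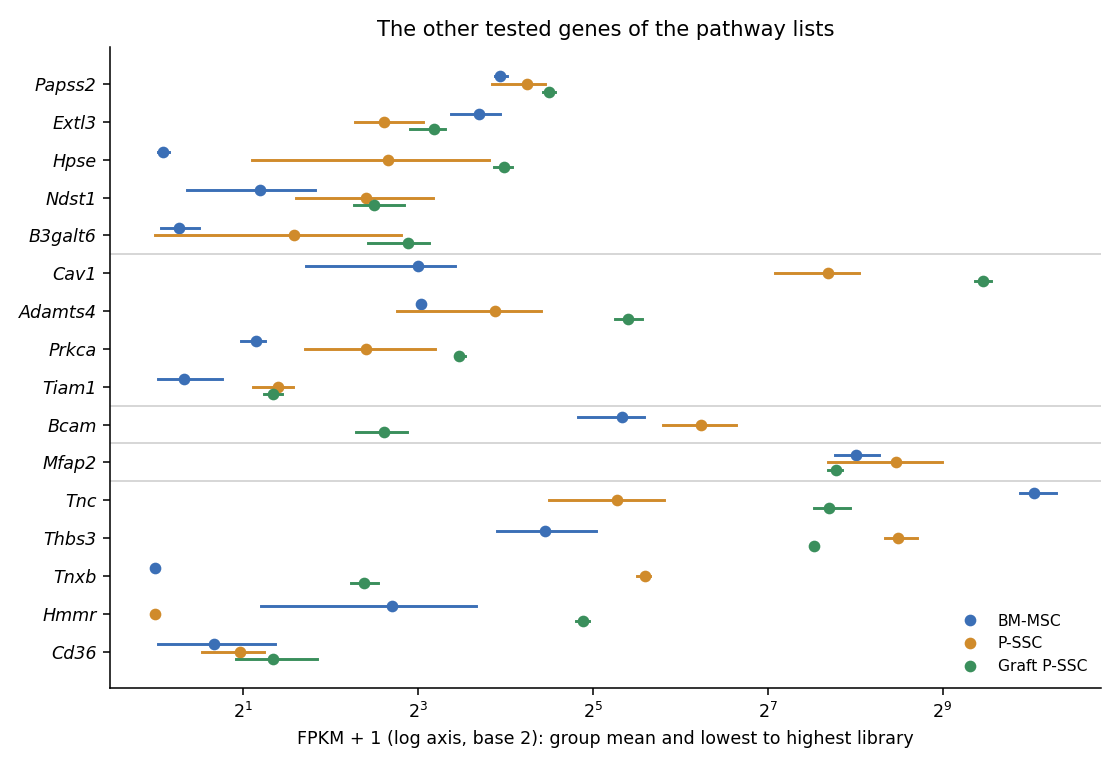
Level of the 16 other tested genes of the pathway lists in the 3 groups, as FPKM with 1 added on a log axis of base 2, with a point for the group mean and a line from the lowest to the highest library; grey lines separate the lists. Cav1 and Adamts4 have their highest means in the graft (705 and 41.5 FPKM), Bcam its lowest (5.15), and Tnc its highest in BM-MSCs (1053).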

How the data were processed

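Cells were sorted and poly-A RNA of 9 libraries was sequenced and mapped to GRCm38 with STAR by the authors. The submitters' processing notes name CASAVA, fastp, STAR (2.6.1d) and featureCounts (1.5.0-p3), and the paper names DESeq2 for the authors' own comparisons. The deposited values are FPKM, made by the authors from the fragments of each gene, a gene length and the library total, without further normalization. The length was found here to be the mean length of the annotated transcripts (GENCODE M21), rounded down, and not the exon length listed in the table. With it 94.7% to 95.1% of the values above 0 in a library were whole fragments (within 0.02). For genes of several transcripts alone it was 93.6% to 94.3%, against 6.64% to 8.39% with the listed length. The mean length depends on how many short transcripts are annotated, which affects levels between genes but not a gene between libraries.

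FPKM were changed to log2(FPKM + 1), the 1948 of 3609 detected genes with at least 1 FPKM in at least 3 libraries were kept, and the 3 comparisons were fitted with limma 3.58.1 (R 4.3.3) in 1 model of all libraries, with Benjamini-Hochberg adjustment over all genes. The procedure was tested on simulated data. Other steps used Python 3.11.15. The members and gene lists were chosen with earlier results of these data known. Genes named are the 4, up to 4 genes of each pathway list and 2 of each marker list with the highest mean, and the 3 genes most alike to each of the 4; others are said to be chosen after their values were seen, and some genes this rule names are not reported here. Of the marker lists, those for the positive sorting antigens (CD51 and CD200), endothelium, skeletal muscle and osteoblasts had no gene in the table and were not analysed here. Replicates are separate libraries of different mice. No 2 libraries agreed within sampling noise (chi-square per degree of freedom of at least 9.77). Alternatives changed the pseudocount, filter, scaling, libraries in the fit, replicate block and trend, and left out each library. Chosen after seeing the data was voom on the recovered fragments (1831 genes), with the syndecan ratio by other lengths.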

Additional observations from a re-analysis of the deposited data

How the results depend on the processing

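The calls of Sdc1 and Col6a3 in P-SSCs against BM-MSCs, of Sdc1 in graft P-SSCs against P-SSCs and of Col6a3 in graft P-SSCs against BM-MSCs held in all 20 alternative settings. Sdc1 ranged from -5.54 to -4.10 and from 3.96 to 5.40, and Col6a3 from 2.26 to 2.65 and from 3.02 to 3.40 (log2). Where a value changed, the cause was not tested.

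Col6a3 in graft P-SSCs against P-SSCs lost its call at 0.50 (median of ratios), 0.68 (same sum of FPKM) and 0.59 (quantile normalization). Lamc3 in the same comparison gained a call under those scalings, at -1.12, -1.06 and -1.22 (limma adjusted p = 0.047, 0.0382 and 0.0339), and at -1.03 with only the groups compared (limma adjusted p = 0.0429). Sdc4 there reversed to -0.14 (median of ratios) and -0.18 (quantile normalization). Lamc3 in graft P-SSCs against BM-MSCs reversed to 0.55 with voom (limma adjusted p = 0.816), and it had no value under the filter of 5 FPKM. Quantile normalization gave 355 lower genes in graft P-SSCs against P-SSCs, where the main number was 224. The higher share of the calls against BM-MSCs was 61.4%, and 51.5% (median of ratios) or 48.9% (quantile normalization). The graft log2 ratio of the syndecans was 0.79 with the listed length and 1.38 from fragments without length.

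Leaving out 1 library at a time gave the following ranges in graft P-SSCs against P-SSCs: -0.11 to 0.35 for Sdc4, negative without replicate 2 of P-SSCs, -1.36 to -0.85 for Lamc3 and 0.62 to 1.0 for Col6a3. In graft P-SSCs against BM-MSCs they were -0.35 to 0.11 for Sdc1, positive without replicate 1 of BM-MSCs, and -0.43 to 0.13 for Lamc3. In P-SSCs against BM-MSCs Lamc3 ranged from 0.59 to 1.16. Sdc4 ranged there from 0.06 (without replicate 1 of BM-MSCs) to 0.54 (without replicate 2 of P-SSCs), and in graft P-SSCs against BM-MSCs from 0.24 to 0.72, without replicates 1 and 3 of BM-MSCs (lowest limma adjusted p = 0.0721). Lower genes in the graft against P-SSCs numbered 149 to 255 (149 without replicate 1 of the graft), and higher genes against BM-MSCs 319 to 667, the lowest without replicates 1 (319) and 2 (321) of the graft.

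The replicate numbers did not pair the libraries: deviations from the group means of libraries with the same number correlated at -0.43 to 0.13 (mean -0.08), and those with other numbers at -0.31 to 0.38. With a replicate block the calls numbered 441, 621 and 755 (472, 665 and 816 without it), and Lamc3 in graft P-SSCs against P-SSCs passed at -1.03 (limma adjusted p = 0.0397). It changed no other call of the 4 genes. For the called comparisons of the pathway genes that the naming rule gives, with Mbp, B3galt6, Csf1r, Adgre1 and Fcgr3 but not the other marker genes, 492 of 590 values in 30 comparisons kept their call, 98 lost it and 0 reversed. Depth limits Lamc3 most, with 0 to 126 fragments per library.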
